A study of Mus musculus with 45 samples.

Results

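The 10 genes described here encode DMAP1 and other subunits of the TIP60 (NuA4) acetyltransferase complex. They were taken by symbol (*Dmap1*, *Kat5*, *Ep400*, *Trrap*, *Ruvbl1*, *Ruvbl2*, *Ing3*, *Brd8*, *Epc1* and *Epc2*) from 55385 genes in the deposited tables. Each symbol matched 1 identifier, and all 10 had enough counts to be tested at every stage. The study asked what the ETS-family transcription factor GABPA does in early mouse development, and 18 RNA-seq libraries were analysed here, with 9457933 to 27660132 expected counts per library. All embryos and cells were homozygous for a degron-tagged allele (*Gabpa*-dTAG/dTAG), whose protein product is degraded when dTAG13 is added, and DMSO was the control. The embryos came from knock-in mice whose founders had been crossed back to C57BL/6J over 2 or more generations. In the embryos dTAG13 was used at 1 µM, from 6 to 30 h post fertilization (hpf) for the late two-cell stage (3 libraries per treatment), from 42 hpf for the morula (2 per treatment) and from 84 hpf for the inner cell mass isolated at E4.5 by its label (E4.5 ICM, 2 per treatment). The study's own text places the collection of that ICM at the mid-blastocyst stage. Mouse embryonic stem cells of 1 tagged line, grown in 2i/LIF medium (2iES), received 0.5 µM for 24 h (2 per treatment). The window of treatment therefore differed between stages, and the dose between embryos and 2iES cells. The study describes its late two-cell, E4.5 ICM and 2iES RNA-seq libraries as biological replicates. No source used here says whether libraries of a group came from separate litters or cultures. The p-values therefore measure the spread between these libraries.

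TIP60 joins a histone acetyltransferase to a chromatin remodeller in one large assembly. KAT5 acetylates histones H4 and H2A as well as non-histone proteins, while EP400 uses ATP to place the variant histone H2A.Z into nucleosomes. The complex acts in gene activation and in the repair of DNA breaks, and its loss is known to disturb self-renewal of embryonic stem cells.

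At each stage, transcripts of the degron-tagged gene itself were higher in all dTAG13 libraries than in all DMSO libraries. The mean of *Gabpa* in FPKM, a level scaled for transcript length and library size, went from 109 to 162 at the late two-cell stage, from 9.49 to 16.2 in morulae, from 11.5 to 30.1 in the E4.5 ICM and from 7.86 to 14.6 in 2iES cells, past the threshold at all stages but the morula (adjusted p = 0.152, edgeR). The degron removes protein, so this RNA value is no measure of the depletion. The 5 two-cell markers summed to between 202 and 409 FPKM in the late two-cell libraries and reached at most 58.8 FPKM in any other library. At the late two-cell stage the 5 cumulus markers went from 3.67 to 5.72 FPKM up to 7.37 to 12.3 FPKM, with *Tnfaip6* higher. The 4 fibroblast markers went there from 3.63 to 5.1 FPKM up to 6.28 to 14.5 FPKM, with 0 past the threshold. Cumulus sums were lower with dTAG13 in morulae and in the E4.5 ICM. In the E4.5 ICM the 10 trophectoderm markers summed to 89.5 to 92.7 FPKM with DMSO and to 867 to 873 FPKM with dTAG13, with 8 of the 9 tested higher, 1 of the 10 at 0 in both groups, and *Elf5*, *Krt18* and *Gata3* leading those that rose. Over the same libraries the 8 epiblast markers went from 760 to 768 FPKM down to 385 to 395 FPKM, with all 8 lower and none at 0, and the 6 primitive endoderm markers went from 256 to 260 up to 339 to 342 FPKM, with 3 higher and 2 lower. In 2iES cells the epiblast markers went from 533 to 653 FPKM down to 381 to 417 FPKM, with 4 of 8 lower and 0 higher, *Pou5f1* and *Prdm14* leading. The epiblast markers that did not pass there went both ways. Among them the mean of *Sox2* went from 17.7 up to 23.8 FPKM and that of *Fgf4* from 13.3 down to 10.5 FPKM. The 5 cumulus markers went in 2iES cells from 0.98 to 1.3 FPKM up to 11 to 11.4 FPKM, with *Tnfaip6* higher. The part of these shifts in the results given here was not tested. In bulk RNA fewer cells of a type and less RNA per cell cannot be told apart. The study states that it collected the ICM before the number of epiblast cells differed between treatments. It also states that trophectoderm was removed by immunosurgery. Cell numbers are not in these data.

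**Figure D1:**
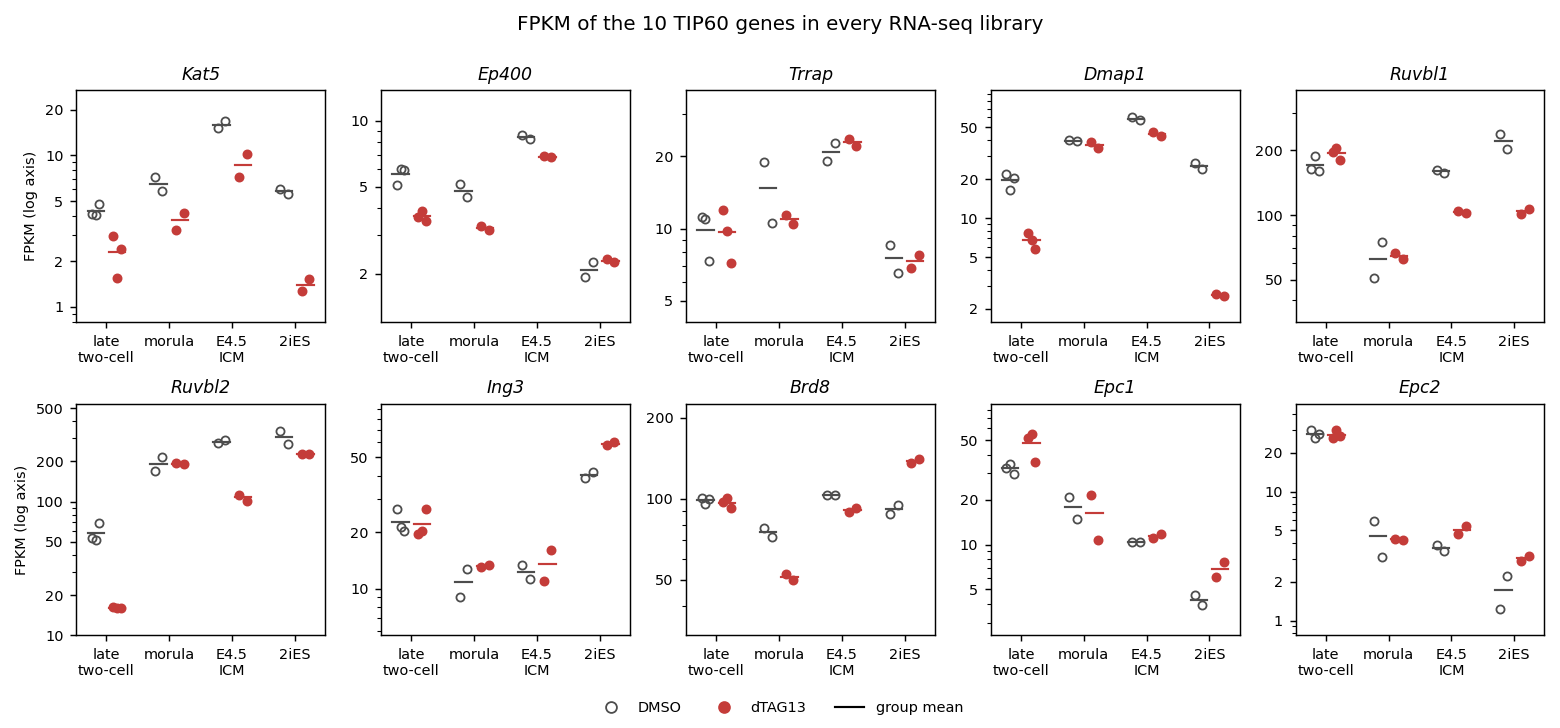
FPKM on a log axis of each of the 10 genes in all 18 libraries, by stage, with open points for DMSO, filled points for dTAG13 and a line at each group mean. *Dmap1* stood apart most in 2iES cells (24.0 and 26.4 FPKM with DMSO, 2.52 and 2.58 with dTAG13) and *Ruvbl2* at the late two-cell stage (51.8 to 68.7 and 16.0 to 16.2 FPKM).

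*Dmap1* encodes DNMT1-associated protein 1, a SANT-domain subunit that TIP60 shares with the SRCAP remodelling complex. On GRCm38 it lies on the minus strand of chromosome 4 from 117674681 to 117682273. GABPA binds DNA through an ETS domain that recognises a core of GGAA, and the sequence of the *Dmap1* start region is shown because it holds 2 copies of the longer form CCGGAAG, which were searched on both strands. The copies begin 62 and 22 bases before the RefSeq start site, which lies 48 bases inside the GENCODE span, so that the GENCODE start falls between them. In the RefSeq window of 300 bases (250 before and 50 after the start, GRCm38.p6, chr4:117682176-117682475, minus strand), capitals mark the motif.
*Dmap1* start region: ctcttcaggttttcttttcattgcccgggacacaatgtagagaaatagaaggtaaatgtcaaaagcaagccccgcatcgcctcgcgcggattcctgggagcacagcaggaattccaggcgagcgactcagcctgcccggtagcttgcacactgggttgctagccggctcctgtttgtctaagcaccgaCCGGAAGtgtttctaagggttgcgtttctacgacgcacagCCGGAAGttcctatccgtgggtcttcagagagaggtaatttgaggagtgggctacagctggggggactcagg
Of the 32851 such windows in the mouse table, 8.86% held CCGGAAG at least once and 1.48% held it 2 or more times. A match in these letters is a description of the sequence and no measure of binding.

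At the late two-cell stage *Dmap1* was at 21.7, 16.5 and 20.5 FPKM with DMSO and at 7.62, 6.82 and 5.75 FPKM with dTAG13. Every depleted library lay below every control library, a pattern that 12.9% of all tested genes showed in that direction. The log2 fold change was -1.61 (standard error 0.19, 3.04-fold lower), with an adjusted p of 0.000313 from edgeR's quasi-likelihood test. In morulae the DMSO libraries held 39.8 and 39.1 FPKM and the dTAG13 libraries 38.4 and 34.8 FPKM, and the log2 fold change of -0.04 (standard error 0.20) did not pass the test. The difference between these 2 responses was itself tested and was -1.63 on the log2 scale (adjusted p = 0.00342, edgeR). *Dmap1* fell in the E4.5 ICM from 60.4 and 56.8 FPKM to 46.4 and 43.3 FPKM, with a standard error of 0.05 on a log2 fold change of -0.44 (adjusted p = 2.15e-10, edgeR). The 2iES values were 26.4 and 24.0 FPKM with DMSO and 2.58 and 2.52 FPKM with dTAG13, which is 917 to 1021 expected counts against 67 to 91. This was the steepest fall of any of the 10 genes at any stage, 10.4-fold lower (log2 fold change -3.38, standard error 0.17, adjusted p = 3.85e-05, edgeR). The response in 2iES cells exceeded that in the E4.5 ICM by 2.92 log2 units (adjusted p = 3.8e-06), and the response at the late two-cell stage exceeded that in the E4.5 ICM by 1.16 (log2 difference -1.16, adjusted p = 0.00264). These tests between stages share libraries with each other and pool the unequal spread of both stages, so their p-values may be too small. Stage cannot be told apart from the window of treatment, nor, against 2iES cells, from the dose.

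KAT5 is the catalytic subunit, an acetyltransferase of the MYST family. Its gene lies on the minus strand of chromosome 19 from 5603014 to 5610237. The first of its 2 RefSeq windows (chr19:5610045-5610344, minus strand) is shown since it also carries 2 copies of CCGGAAG, starting 13 and 38 bases after the start site, with capitals again marking the motif.
*Kat5* start region: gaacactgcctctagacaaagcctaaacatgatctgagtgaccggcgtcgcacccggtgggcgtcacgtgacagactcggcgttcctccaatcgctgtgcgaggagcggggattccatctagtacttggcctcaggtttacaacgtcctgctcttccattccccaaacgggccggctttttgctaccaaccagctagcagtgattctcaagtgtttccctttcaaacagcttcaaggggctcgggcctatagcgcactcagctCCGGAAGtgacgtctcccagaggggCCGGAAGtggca
The other window, which belongs to a second annotated start, held neither CCGGAAG nor its inner part CGGAAG. Of the 8 genes with a window, only *Dmap1* and *Kat5* held CCGGAAG, and *Brd8* and *Epc1* were not searched. The window of *Trrap* is set on a start 1062 bases inside its GENCODE span and the first window of *Kat5* on one 143 bases inside, so the sequence farther upstream of those genes was searched only in part or not at all.

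*Kat5* was the least abundant of the 10 in late two-cell controls. At that stage it was at 4.13, 4.02 and 4.78 FPKM with DMSO and at 2.94, 1.55 and 2.43 FPKM with dTAG13. The groups did not overlap, but the log2 fold change of -1.05 (standard error 0.29) had an adjusted p of 0.0547 in the edgeR test. Morula values were 7.16 and 5.86 FPKM with DMSO and 3.24 and 4.2 FPKM with dTAG13, with a log2 fold change of -0.65 (standard error 0.35) and an adjusted p of 0.43 (edgeR). In the E4.5 ICM it fell from 15.2 and 16.8 FPKM to 7.21 and 10.2 FPKM (log2 fold change -0.95, standard error 0.11, adjusted p = 9.18e-10, edgeR). In 2iES cells it fell from 6.02 and 5.56 FPKM to 1.27 and 1.52 FPKM (log2 fold change -2.52, standard error 0.23, adjusted p = 0.000272, edgeR). On log2(FPKM + 1) with limma the fall was smaller (-1.50, adjusted p = 0.00164). The transcript length that RSEM assigned to *Kat5*, by which FPKM is scaled and counts are not, went from 1590 and 1599 to 1118 and 1228 bases. The 2iES response was larger than that of the E4.5 ICM by 1.55 log2 units (adjusted p = 0.00134, edgeR). Exons of *Rnaseh2c* on the opposite strand cover 12.1% of the exon bases of *Kat5*, and the SMART-Seq v4 and Nextera XT kits do not keep strand, so part of the *Kat5* counts is uncertain. In late two-cell embryos *Rnaseh2c* had 195 to 227 expected counts with DMSO and 173 to 282 with dTAG13, and 638 to 683 against 682 to 778 in morulae. In the E4.5 ICM it had 787 to 847 with DMSO and 464 to 506 with dTAG13, and in 2iES cells 898 to 1252 against 393 to 501. Across all libraries these counts were 126% to 1420% of those of *Kat5*.

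RUVBL1 and RUVBL2 are related AAA+ ATPases that form a mixed ring and also serve the INO80 and SRCAP complexes and the R2TP chaperone. The start regions of both genes are shown for contrast with those of *Dmap1* and *Kat5*. The *Ruvbl1* window (chr6:88465159-88465458, plus strand) held only the shorter CGGAAG, in capitals, 87 bases before the start site, a motif found in 16.9% of all windows.
*Ruvbl1* start region: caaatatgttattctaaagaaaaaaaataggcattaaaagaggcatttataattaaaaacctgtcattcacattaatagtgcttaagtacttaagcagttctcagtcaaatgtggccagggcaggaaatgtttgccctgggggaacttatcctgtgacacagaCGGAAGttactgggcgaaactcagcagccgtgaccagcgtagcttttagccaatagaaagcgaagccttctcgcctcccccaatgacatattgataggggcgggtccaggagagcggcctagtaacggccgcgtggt
The *Ruvbl2* window (chr7:45434415-45434714, minus strand) held neither motif.
*Ruvbl2* start region: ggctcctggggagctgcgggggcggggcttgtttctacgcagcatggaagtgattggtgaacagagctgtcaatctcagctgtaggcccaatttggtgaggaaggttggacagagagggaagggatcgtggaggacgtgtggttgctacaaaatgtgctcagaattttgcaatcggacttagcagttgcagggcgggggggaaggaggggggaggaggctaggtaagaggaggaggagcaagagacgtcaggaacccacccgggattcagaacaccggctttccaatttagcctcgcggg
That RefSeq start lies 3632 bases inside the GENCODE span of *Ruvbl2* (chromosome 7 from 45421760 to 45438096), so a start farther upstream was not searched.

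*Ruvbl2* changed most of the 10 genes at the late two-cell stage, from 53.4, 51.8 and 68.7 FPKM with DMSO to 16.2, 16.0 and 16.0 FPKM with dTAG13. All depleted libraries were below all controls, and the log2 fold change was -1.95 (standard error 0.15, 3.87-fold lower, adjusted p = 2.32e-05, edgeR). In morulae the groups overlapped, with 170 and 216 FPKM in controls and 196 and 190 FPKM after depletion (log2 fold change 0.09, standard error 0.20). *Ruvbl2* fell again in the E4.5 ICM, from 274 and 289 FPKM to 113 and 102 FPKM (log2 fold change -1.45, standard error 0.03, 2.74-fold lower, adjusted p = 4.21e-32, edgeR). Its fall in 2iES cells, from 339 and 270 FPKM to 227 and 227 FPKM, was smaller (log2 fold change -0.49, standard error 0.13, adjusted p = 0.0168, edgeR). The morula response differed from that at the late two-cell stage (log2 difference between late two-cell and morula -2.10, adjusted p = 0.000567) and from that in the E4.5 ICM (morula minus E4.5 ICM 1.53, adjusted p = 0.000417). In contrast to *Dmap1* and *Kat5*, the E4.5 ICM response of *Ruvbl2* was the larger one against 2iES cells (E4.5 ICM minus 2iES -0.98, adjusted p = 0.000501, edgeR). Exons of *Gys1* on the opposite strand cover 10.7% of the *Ruvbl2* exon bases, and the kits keep no strand. At the late two-cell stage *Gys1* had 86 to 177 expected counts with DMSO, which is 5.72% to 9.89% of those of *Ruvbl2*, and 98 to 164 with dTAG13, which is 16.8% to 28.8%. At the other stages the share was at most 5.07% in any library.

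*Ruvbl1* did not pass the test in late two-cell embryos or morulae, and its response was not tested against that of *Ruvbl2*. At the late two-cell stage it was at 164, 188 and 160 FPKM with DMSO and at 197, 205 and 180 FPKM with dTAG13 (log2 fold change 0.11, standard error 0.10). The groups overlapped there and in morulae, where the values were 50.7 and 74.5 FPKM against 66.2 and 62.4 FPKM. It fell in the E4.5 ICM, from 162 and 157 FPKM to 104 and 102 FPKM (log2 fold change -0.69, standard error 0.03, adjusted p = 6.45e-21, edgeR). In 2iES cells it fell from 238 and 203 FPKM to 101 and 107 FPKM (adjusted p = 0.000465, edgeR, log2 fold change -1.11, standard error 0.12). The E4.5 ICM response was 0.81 log2 units below the late two-cell one (adjusted p = 0.00173, edgeR) and 0.78 below the morula one (adjusted p = 0.0247, edgeR). The latter call was lost without any of the 4 E4.5 ICM libraries or either dTAG13 morula library, which left *Ruvbl2* as the one gene past the threshold in that comparison. Of the 31-base words in *Ruvbl1* transcripts, 57.0% also occur in the annotated gene *Gm5837*, whose expected counts were at most 5.89% of those of *Ruvbl1* in any library.

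The ratio of the paired ATPase transcripts within a library differed between treatments in both directions. In TPM, a length-scaled level with the same total in every library, *Ruvbl2* per *Ruvbl1* was 0.325, 0.276 and 0.430 in late two-cell controls and 0.0823, 0.0777 and 0.0886 with dTAG13. In morulae it was 3.36 and 2.91 against 2.97 and 3.04, so that the groups overlapped. It went down in the E4.5 ICM, from 1.69 and 1.84 to 1.09 and 1.00, and up in 2iES cells, from 1.42 and 1.33 to 2.24 and 2.12. These ratios are given as a description with no test.

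**Figure D2:**
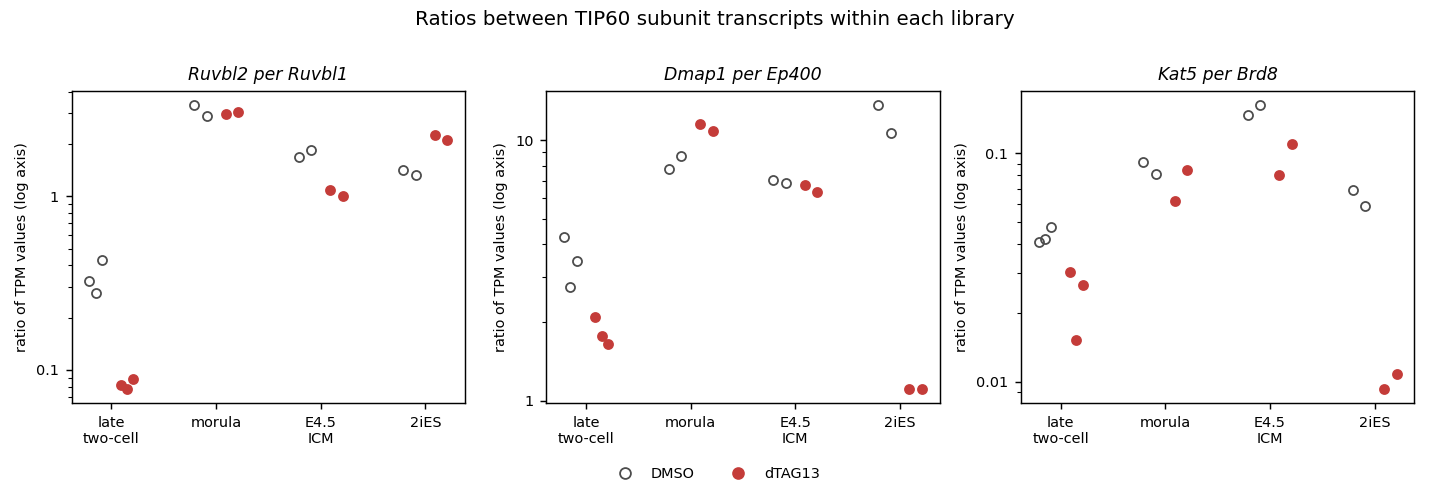
Ratios between TPM values of subunit transcripts within each library (log axes), with open points for DMSO and filled points for dTAG13. *Dmap1* per *Ep400* went from 13.7 and 10.7 to 1.11 and 1.11 in 2iES cells, and *Kat5* per *Brd8* from 0.0688 and 0.0586 to 0.00931 and 0.0108.

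EP400, the remodelling ATPase, and TRRAP, the scaffold that contacts transcriptional activators and is shared with the SAGA complex, form the body of the assembly. *Ep400* (chromosome 5 from 110664373 to 110770717, minus strand) was at 5.09, 6.03 and 5.97 FPKM in late two-cell controls and at 3.63, 3.86 and 3.50 FPKM with dTAG13. No depleted library reached a control, but the log2 fold change of -0.50 (standard error 0.14) had an adjusted p of 0.051 (edgeR). *Kat5* and *Ep400* at this stage were near the threshold, and both passed with DESeq2 (adjusted p = 0.0157 and 0.00915). Over all alternatives the adjusted p went from 0.00488 to 0.147 for *Kat5*, under the threshold in 4 of 18 fits, and from 0.00915 to 0.155 for *Ep400*, in 3 of 18. Morula values of *Ep400* were 4.47 to 5.12 FPKM with DMSO and 3.17 to 3.31 FPKM with dTAG13 (log2 fold change -0.48, standard error 0.21, adjusted p = 0.347, edgeR). *Ep400* fell in the E4.5 ICM from 8.59 and 8.27 FPKM to 6.89 and 6.83 FPKM (log2 fold change -0.17, standard error 0.05, adjusted p = 0.00467, edgeR). In 2iES cells it was at 1.93 and 2.26 FPKM with DMSO and 2.33 and 2.27 FPKM with dTAG13 (log2 fold change 0.17, standard error 0.17). *Trrap* (chromosome 5 from 144767732 to 144859778, plus strand) had overlapping groups at all 4 stages, ranging from 7.32 to 11.2 FPKM in late two-cell controls and from 7.19 to 12.0 FPKM after depletion. The 2iES values of *Trrap* were 6.51 to 8.52 and 6.87 to 7.76 FPKM. Its one change past the threshold was in the E4.5 ICM, where it rose by 0.17 log2 units (standard error 0.06, adjusted p = 0.00506, edgeR), with 19.1 and 22.7 FPKM in controls and 23.6 and 22.2 FPKM with dTAG13. In morulae it had 19.0 and 10.6 FPKM with DMSO and 11.4 and 10.5 FPKM with dTAG13, and it passed the test there only when DMSO replicate 2 was left out (log2 fold change -0.90).

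The remaining 4 genes encode the reader and scaffold subunits, and none of them fell in 2iES cells. ING3 carries a PHD finger that binds methylated histone H3, and *Ing3* (chromosome 6 from 21949571 to 21976038, plus strand) rose in 2iES cells from 38.6 and 42 FPKM to 58.0 and 60.3 FPKM (log2 fold change 0.41, standard error 0.12, adjusted p = 0.0271, edgeR). It passed at no other stage, with 20.4 to 26.5 FPKM in late two-cell controls and 19.6 to 26.5 FPKM after depletion. *Ing3* was at 9.06 to 12.8 FPKM with DMSO and 13 to 13.3 FPKM with dTAG13 in morulae, and at 11.3 to 13.4 against 11 to 16.0 FPKM in the E4.5 ICM. *Brd8*, for a bromodomain subunit, rose in 2iES cells from 87.6 and 95.0 FPKM to 136 and 141 FPKM (log2 fold change 0.64, standard error 0.11, adjusted p = 0.00315, edgeR). The same gene fell slightly in the E4.5 ICM, from 103 FPKM in both controls to 89.6 and 92.2 FPKM (log2 fold change -0.15, standard error 0.03, adjusted p = 8.08e-05, edgeR), and the difference between the 2 responses was -0.81 (adjusted p = 0.000415, edgeR). In morulae *Brd8* was at 78.0 and 72.3 FPKM with DMSO and at 52.4 and 49.8 FPKM with dTAG13, and these groups did not overlap, but the log2 fold change on counts was -0.30 (standard error 0.20, adjusted p = 0.533, edgeR). At the late two-cell stage its values were 95.3 to 101 FPKM and 92.0 to 101 FPKM.

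EPC1 and EPC2 are paralogous enhancer-of-polycomb proteins that anchor KAT5 in the complex. *Epc1* rose in 2iES cells from 4.59 and 3.95 FPKM to 6.03 and 7.63 FPKM, which on counts was 1.22 log2 units (standard error 0.17, adjusted p = 0.00129, edgeR). Its counts in the E4.5 ICM rose by 0.50 log2 units (standard error 0.11, adjusted p = 0.000145, edgeR), while FPKM was 10.4 in both controls and 11 and 11.8 with dTAG13. The effective transcript length that RSEM assigned to *Epc1*, by which FPKM is scaled and counts are not, also shifted, from 1032 and 1043 bases to 1408 and 1406 bases in the E4.5 ICM and from 1242 and 1550 to 2369 and 1852 bases in 2iES cells. At the late two-cell stage *Epc1* was at 32.7, 34.8 and 29.6 FPKM with DMSO and at 51.9, 54.9 and 35.6 FPKM with dTAG13. It was the one gene of the 10 with every depleted library above every control there, and the log2 fold change on counts was 0.28 (standard error 0.16, adjusted p = 0.381, edgeR). In morulae it was at 14.9 to 20.9 and 10.8 to 21.6 FPKM. On log2(FPKM + 1) with limma the 2iES change was 0.57 (adjusted p = 0.0509) and the E4.5 ICM change 0.11 (adjusted p = 0.249). The 2iES rise passed in 14 of 16 fits. *Epc2* (chromosome 2 from 49451486 to 49551948, plus strand) rose in the E4.5 ICM, from 3.83 and 3.44 FPKM to 4.71 and 5.45 FPKM (log2 fold change 0.33, standard error 0.10, adjusted p = 0.00315, edgeR). In 2iES cells it was at 1.23 and 2.23 FPKM with DMSO and 2.89 and 3.19 FPKM with dTAG13 (log2 fold change 0.82, standard error 0.29, adjusted p = 0.0465, edgeR). Leaving out 1 library gave 0.41 to 1.29 for that change, and limma on log2(FPKM + 1) gave 0.59 (adjusted p = 0.0754). Late two-cell groups of *Epc2* overlapped, with means of 28.1 ± 1.91 and 27.6 ± 2.19 FPKM, as did those of morulae, at 3.11 to 5.90 and 4.23 to 4.28 FPKM.

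**Figure D3:**
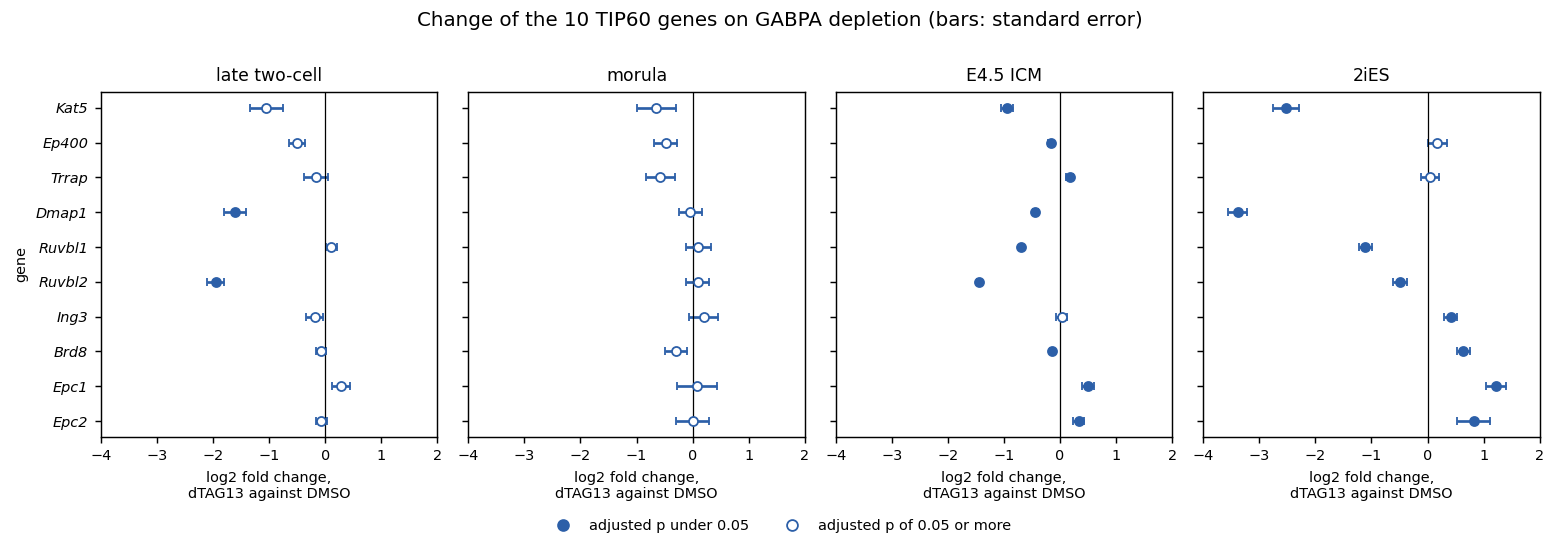
Log2 fold change of each gene with dTAG13 against DMSO at each stage, from edgeR on expected counts, with bars for the standard error and filled points for an adjusted p under 0.05. No gene is filled in morulae, late two-cell embryos have 2 filled below 0, and in 2iES cells *Dmap1* (-3.38) and *Kat5* (-2.52) lie farthest from 0.

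Counted together at an adjusted p under 0.05, 2 of the 10 genes fell and none rose at the late two-cell stage, against 7.24% of all 17421 tested genes lower and 1.32% higher. In FPKM, 4 of the 10 had all depleted libraries below all controls and 1 had them all above, as did 12.9% and 14.8% of all genes. The median log2 fold change of the 10 was -0.17, beside 0.02 over all genes. In morulae 0 of the 10 passed in edgeR and 0 in DESeq2, and over all genes 0.205% were lower and 0.161% higher (edgeR). An unadjusted p under 0.05 was found for 2 of the 10 (*Ep400* and *Trrap*), and for 1854 of all 13667 tested genes (edgeR). Non-overlapping FPKM values were lower for 4 and higher for 1 of the 10 there, beside 27.7% and 17.3% of all genes. In the E4.5 ICM 6 fell and 3 rose, but 38.5% of all genes were lower and 38.4% higher there, and the medians were -0.16 and 0.01. The FPKM groups did not overlap for 8 genes, 6 below and 2 above the controls, as for 39.3% and 45.5% of all genes. The replicates of that stage were the closest of any, with a biological coefficient of variation of 0.0237 against 0.159 to 0.284 at the other stages, and a change of 0.15 log2 units passed there. When all 18 libraries shared 1 estimate of the spread, *Dmap1*, *Kat5*, *Ruvbl1* and *Ruvbl2* fell and none rose in the E4.5 ICM. Over all 16 fits of that stage *Ep400* passed in 10, *Trrap* in 11 and *Brd8*, *Epc1* and *Epc2* in 13 each, and *Ing3* passed in 1, without dTAG13 replicate 1. In 2iES cells 4 fell and 4 rose, beside 28.1% of all genes lower and 26.5% higher, with medians of 0.11 and 0.03. There the FPKM of 4 genes lay wholly below and of 5 wholly above the controls, beside 36.9% and 41.8% of all genes. Leaving out either dTAG13 library of 2iES cells reduced these 8 to 5, namely *Dmap1*, *Kat5*, *Ruvbl1*, *Brd8* and *Epc1*. A stricter call also asked for a 2-fold change and for 1 FPKM or more on average in a group. By that call *Dmap1* and *Ruvbl2* were lower at the late two-cell stage, where 3.63% of all genes were lower and 0.476% higher. None of the 10 passed it in morulae (0.198% and 0.154% of genes), and *Ruvbl2* alone was lower in the E4.5 ICM (13.2% of genes lower, 12.1% higher). In 2iES cells *Dmap1*, *Kat5* and *Ruvbl1* were lower and *Epc1* was higher, where 15.6% of genes were lower and 12.4% higher.

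Of the tests of a difference between stages, late two-cell minus morula passed for 2 of the 10, both lower, beside 2.96% of all genes lower and 0.206% higher. Morula minus E4.5 ICM passed for 2, both higher, beside 15.7% higher and 13.4% lower. Late two-cell minus E4.5 ICM passed for 1 in each direction, beside 11.2% lower and 11.3% higher. E4.5 ICM minus 2iES passed for 3 lower and 3 higher, beside 21.8% and 20.1%.

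The levels in control embryos and cells set the scale of these changes. *Ruvbl1* led at the late two-cell stage with 171 ± 14.9 FPKM (SD, n = 3), followed by *Brd8* at 98.8 ± 3.08 and *Ruvbl2* at 58.0 ± 9.36, while *Kat5* was last at 4.31 ± 0.411 FPKM. From the morula on *Ruvbl2* was the highest, at 193 ± 32.6 FPKM in morulae, 281 ± 10.7 in the E4.5 ICM and 304 ± 48.3 in 2iES cells (n = 2 each). *Brd8* at 75.2 ± 4.05 and *Ruvbl1* at 62.6 ± 16.8 FPKM lay within each other's spread in morulae, as did *Epc1* at 32.4 ± 2.60 and *Epc2* at 28.1 ± 1.91 FPKM at the late two-cell stage when both SDs are added. *Epc2* had the lowest mean of the 10 in the later samples, at 4.5 ± 1.97, 3.63 ± 0.276 and 1.73 ± 0.707 FPKM. It did not stand apart from *Ep400* in morulae, at 4.79 ± 0.460 FPKM, or in 2iES cells, at 2.09 ± 0.233 FPKM.

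Between control groups the subunits did not move as a block. From late two-cell to morula, *Dmap1* rose by 1.00 and *Ruvbl2* by 1.85 log2 units, whereas *Ruvbl1*, *Ing3*, *Brd8*, *Epc1* and *Epc2* fell, *Epc2* most (log2 fold change -2.58, adjusted p = 2.46e-07, edgeR). In that comparison 38.7% of all genes were lower and 27.6% higher, and the median over all genes was -0.52. From morula to E4.5 ICM *Kat5* rose by 1.13, *Ruvbl1* by 1.11, *Brd8* by 0.99 and *Dmap1* by 0.31 log2 units, and *Epc2* fell by 0.66, beside 31.6% of genes higher and 30.4% lower. Leaving out any E4.5 ICM library kept *Kat5*, *Ruvbl1* and *Brd8* past the threshold and lost *Dmap1* and *Epc2*. From E4.5 ICM to 2iES cells *Ing3* rose by 1.49, *Ruvbl1* by 0.85 and *Ruvbl2* by 0.51 log2 units, and the other 7 fell, led by *Trrap* (-1.34) and *Ep400* (-1.29), with 33.9% of all genes lower and 31.5% higher. Each stage had its own libraries, and stage cannot be told apart from anything else that differed between those sets. Summed over the 10 genes, TPM was 423 to 428 in late two-cell controls, 308 and 362 in morulae, 613 and 631 in the E4.5 ICM and 639 and 534 in 2iES cells. With dTAG13 the sum was 379 to 417, 336 and 307, 378 and 377, and 421 and 431 TPM in the same order. These groups overlapped in morulae alone. With *Ruvbl1* and *Ruvbl2* left out, 2iES sums were instead higher after depletion, at 167 and 174 TPM against 149 and 148 TPM. Such sums overlapped among late two-cell libraries (200 to 221 TPM with DMSO, 191 to 212 with dTAG13). They were lower after depletion in morulae (121 and 105 against 140 and 130 TPM). E4.5 ICM libraries also had lower ones (182 and 190 against 214 and 216 TPM). The *Ruvbl1* and *Ruvbl2* share of the sum over all 10 was 65.0% and 65.7% in E4.5 ICM controls and 51.9% and 49.6% with dTAG13. In 2iES cells it went from 76.7% and 72.3% to 60.3% and 59.7%. The groups overlapped at the late two-cell stage (48.4% to 52.7% against 49.2% to 49.6%) and in morulae (54.5% and 64.1% against 64.0% and 65.9%).

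Across all 18 libraries, the genes whose log2(FPKM + 1) was most like that of *Dmap1*, among 7880 others with a mean of at least 5 FPKM, included *Hgh1* (Pearson r = 0.962), *Cers2* (0.955), *Arhgap1* (0.952) and *Mrpl44* (0.949). *Mrpl44*, which encodes a mitochondrial ribosomal protein, went from 50.5 to 21.4 mean FPKM at the late two-cell stage and from 44.3 to 16.0 in 2iES cells. Among the 8 other TIP60 genes compared, which leave out *Ep400* with a mean under 5 FPKM, *Kat5* was the closest, at r = 0.876 and place 53, and *Ruvbl2* was at 0.429. For *Ing3* (-0.760) and *Brd8* (-0.567) the correlation with *Dmap1* was negative. These values share stage, treatment and library, and they are a description over 18 libraries.

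The rest of the complex was counted from a list of 9 further subunits. In neither of the 2 earlier stages did any of the 9 pass (edgeR, adjusted p under 0.05). In the E4.5 ICM 7 were lower and 2 higher (median log2 fold change -0.44), where 38.5% of all genes were lower and 38.4% higher (median 0.01). In 2iES cells 6 were lower and 0 higher (median -0.53), where 28.1% of all genes were lower and 26.5% higher (median 0.03). The 6 in 2iES cells included *Actl6a*, an actin-related subunit (141 ± 19.5 to 73.0 ± 0.728 FPKM, log2 fold change -1.11), and *Mrgbp*, the partner of the MRG15 chromodomain protein (15.7 ± 2.52 to 6.62 ± 0.799 FPKM, log2 fold change -1.26). The histone variant that EP400 deposits is encoded by *H2afz* and *H2afv*. *H2afz* fell from 4190 ± 72.5 to 2550 ± 3.23 FPKM in the E4.5 ICM and from 10400 ± 70.6 to 6430 ± 185 FPKM in 2iES cells (log2 fold changes -0.78 and -0.73). *H2afv* fell in the E4.5 ICM from 399 ± 5.57 to 304 ± 6.29 FPKM (-0.57), but in 2iES cells it was at 761 ± 75.7 and 810 ± 22.3 FPKM (-0.04, adjusted p = 0.799, edgeR). *Anp32e*, which encodes a chaperone that removes H2A.Z, fell in 2iES cells (-0.54) and not past the threshold in the E4.5 ICM (-0.06), and none of these 3 genes passed at the other 2 stages.

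The counts for complexes that share subunits with TIP60 stand beside shares over all genes of 7.24% lower and 1.32% higher in late two-cell embryos, 38.5% and 38.4% in the E4.5 ICM, and 28.1% and 26.5% in 2iES cells. In the 3-gene SRCAP list, *Actr6*, an actin-related subunit, was lower at the late two-cell stage, in the E4.5 ICM and in 2iES cells (log2 fold changes -0.40, -0.89 and -1.63), while *Srcap*, the ATPase, rose in the E4.5 ICM from 6.23 ± 0.523 to 13.7 ± 0.0566 FPKM (1.44). In the 12-gene INO80 list 4 fell and 0 rose at the late two-cell stage, 5 fell and 5 rose in the E4.5 ICM, close to the shares over all genes there, and 3 fell and 1 rose in 2iES cells. *Ino80c* and *Ino80b* fell at all 3 of these stages, *Ino80c* by 1.29, 2.24 and 2.69 log2 units, *Mcrs1* fell in the E4.5 ICM (-1.3) and in 2iES cells from 56.5 ± 11.6 to 3.29 ± 0.0778 FPKM (-4.38), and *Actr5* rose in the E4.5 ICM from 1.54 ± 0.148 to 8.62 ± 0.389 FPKM (2.50). Of the 6 R2TP and TTT chaperone genes, which help assemble RUVBL and TRRAP complexes, 0 passed in the first 2 stages and 2 fell and 2 rose in the E4.5 ICM. In 2iES cells 1 fell and 1 rose, the fall being that of *Pih1d1* from 73.4 ± 13.8 to 14.6 ± 3.37 FPKM (-2.66). In the 15-gene SAGA list 0 passed in the first 2 stages, 9 fell and 4 rose in the E4.5 ICM, and 8 fell and 1 rose in 2iES cells, with *Supt20* (-1.68 and -2.08) and *Supt7l* (-1.65 and -1.26) lower in both. *Kat2b*, one of the alternative acetyltransferases of SAGA, had the largest change of that list in the E4.5 ICM, from 8.25 ± 0.0212 to 2.42 ± 0.898 FPKM (-1.93), and *Tada3* fell in 2iES cells from 26.2 ± 2.52 to 9.12 ± 1.21 FPKM (-1.66). Of the 4 other MYST acetyltransferase genes, 3 fell and 1 rose in the E4.5 ICM, and 0 fell and 2 rose in 2iES cells. *Kat8* rose in 2iES cells by 1.26 log2 units, where *Kat5* fell by 2.52, but in the E4.5 ICM both fell (-0.45 and -0.95). *Dnmt1*, whose product gave DMAP1 its name, was lower in the E4.5 ICM (18.7 ± 0.247 to 7.71 ± 0.544 FPKM, log2 fold change -1.34) and in 2iES cells (-0.73).

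**Figure D4:**
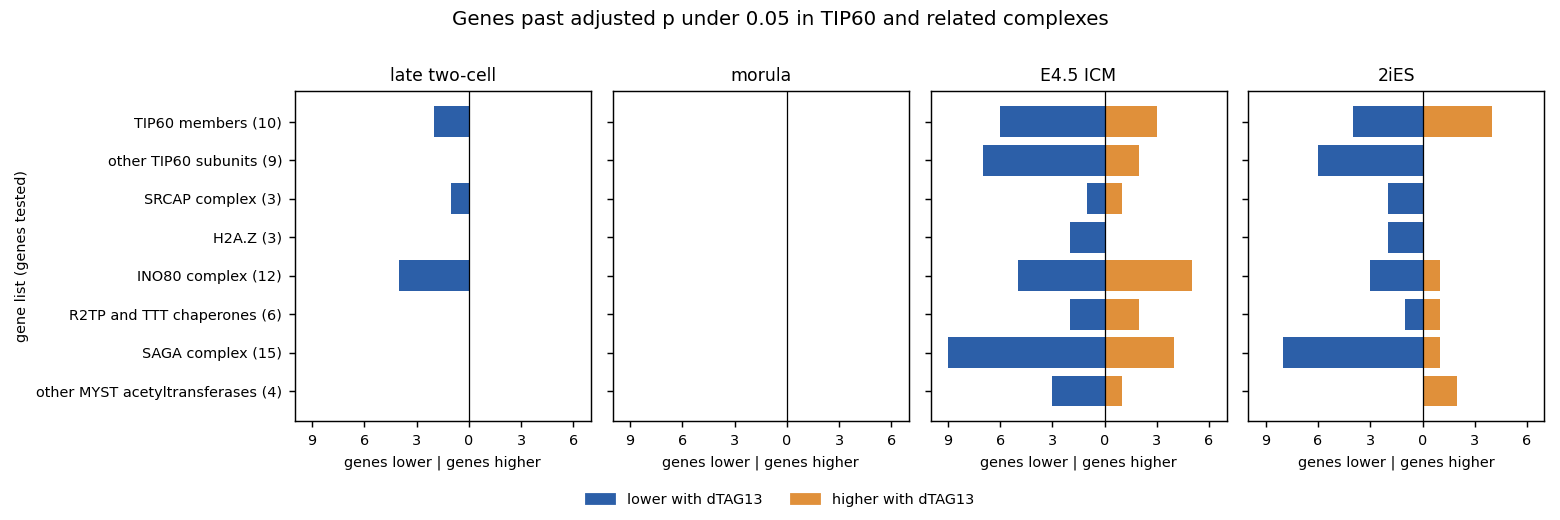
Number of genes lower (left of 0) and higher (right of 0) with dTAG13 at an adjusted p under 0.05 in the 10 TIP60 genes and related lists, by stage, with the number of genes tested in brackets. Morulae have no bar, and the 9 other TIP60 subunits show 6 lower and 0 higher in 2iES cells.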

How the data were processed

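The authors amplified polyadenylated RNA with SMART-Seq v4, made Nextera XT libraries, mapped trimmed reads to GRCm38 with STAR and quantified genes with RSEM. The deposited tables give expected counts, TPM and FPKM per gene and library, with FPKM intervals and an effective length. Genes were named from GENCODE M21, which named 55144 of 55385 identifiers. Expected counts were rounded and genes were kept if at least 10 counts were reached in a number of libraries equal to the smaller group. Groups were compared by edgeR 4.0.16 (quasi-likelihood test, TMM scaling, R 4.3.3), and p-values were adjusted over all genes tested by the Benjamini-Hochberg method. Standard errors are the log2 fold change over the square root of F. Effects were compared between stages by an interaction term in 1 fit of both stages, from which the control levels were also compared. That fit pools the spread of stages that differ in it. The biological coefficient of variation was 0.112 for the E4.5 ICM with 2iES cells, against 0.0237 and 0.159 apart. For *Dmap1* the standard error of that difference was 0.14, below the 0.17 of 2iES cells alone. The p-values of differences between stages may therefore be too small. DESeq2 1.42.0 and limma 3.58.1, the latter on log2(FPKM + 1) and log2(TPM + 0.1), were alternatives, beside other scalings, filters, thinning and left-out libraries. The edgeR script was tested on simulated data. The members and all gene lists were chosen with earlier results of these data known. The 10 members are given at every stage. From other lists, the genes eligible to be named had a fold change of at least 2 at an adjusted p under 0.05, at most 3 per list and stage by size, together with any gene of the further TIP60, SRCAP and H2A.Z lists, and the marker lists are given mainly by their sums. Promoter windows are RefSeq sequences. The other 27 samples were not analysed here. One item among the genes most like *Dmap1* is not reported here.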

Additional observations from a re-analysis of the deposited data

Results flagged for a closer look

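The dTAG13 effects on 6 of the 10 genes differed between stages by a test of the difference itself (edgeR interaction, adjusted p under 0.05). All 6 passed in E4.5 ICM minus 2iES, where 21.8% of all genes were lower and 20.1% higher. The share of all genes passing in any of the comparisons was not counted. Between the late two-cell stage and the morula the log2 difference was -2.10 for *Ruvbl2* and -1.63 for *Dmap1*. Morula minus E4.5 ICM gave 1.53 for *Ruvbl2* and 0.78 for *Ruvbl1*. Late two-cell minus E4.5 ICM gave -1.16 for *Dmap1* and 0.81 for *Ruvbl1*. E4.5 ICM minus 2iES gave 2.92 for *Dmap1*, 1.55 for *Kat5*, 0.40 for *Ruvbl1*, -0.98 for *Ruvbl2*, -0.81 for *Brd8* and -0.74 for *Epc1*. Over all genes 2.96% were lower and 0.206% higher in the first comparison, and 13.4% and 15.7% in the second. The third had 11.2% lower and 11.3% higher. The comparisons share libraries and pool the unequal spread of both stages, so their p-values may be too small. The window of treatment changed with stage, and the dose differed between embryos and 2iES cells.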

How the results depend on the processing

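*Dmap1* and *Ruvbl2* at the late two-cell stage passed in all 18 fits, and *Dmap1*, *Kat5* and *Ruvbl1* in the E4.5 ICM and 2iES cells, with *Ruvbl2* in the E4.5 ICM, in all 16. *Dmap1* ranged from -1.70 to -1.41 at the late two-cell stage and from -3.65 to -2.88 in 2iES cells. At the late two-cell stage 4 members passed in place of 2 with at least 50 counts, with DESeq2 and with all 18 libraries in 1 fit. In the E4.5 ICM 4 passed in place of 9 with all 18 libraries in 1 fit and 1 with the fold and FPKM thresholds, which left 4 in 2iES cells. Late two-cell minus E4.5 ICM gave 4 with at least 50 counts, and E4.5 ICM against morula gave 3 with DMSO libraries only. Leaving out 1 library gave 0 to 1 members in morulae (*Trrap* without DMSO replicate 2), 5 to 8 in 2iES cells, 1 to 6 for morula minus E4.5 ICM and 3 to 6 for E4.5 ICM against morula. The cause of these shifts was not tested, and a group left with 1 library is assumed to vary like the others. Upper-quartile scaling moved the median over all genes to 0.14 at the late two-cell stage, 0.11 in the E4.5 ICM and 0.21 in 2iES cells, and library totals moved it to 0.25 for E4.5 ICM against morula and -0.41 for 2iES against E4.5 ICM, with 7 of 10 members lower and 2 higher there. Same-numbered libraries did not deviate together (correlations from -0.24 to 0.13), and with a replicate block 2, 0, 9 and 7 members passed in order of stage, against 2, 0, 9 and 8 without it.

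No value past the threshold changed sign. Upper-quartile scaling and library totals gave 0.047 and 0.0043 for *Brd8* and 0.045 and 0.0022 for *Epc2* at the late two-cell stage. Limma on FPKM and on TPM gave -0.19 and -0.14 for *Epc1* in morulae and -0.026 and -0.14 for *Trrap* in 2iES cells, where no count filter gave -0.036. *Epc2* in morulae was 0.01 with RLE factors, 0.0096 with DESeq2, 0.017 with all libraries, 0.046 on TPM, 0.0033 when thinned and 0.051 with the replicate block, and *Ing3* in the E4.5 ICM was -0.081 when thinned. Leaving out 1 library gave -0.27 to 0.023 for *Trrap* at the late two-cell stage, -0.16 to 0.42 for *Ruvbl1*, -0.11 to 0.32 for *Ruvbl2*, -0.42 to 0.46 for *Epc1* and -0.38 to 0.50 for *Epc2* in morulae, -0.17 to 0.29 for *Ing3* in the E4.5 ICM, and -0.027 to 0.31 for *Ep400* and -0.049 to 0.19 for *Trrap* in 2iES cells. Of 620 values of single members, 551 kept direction and side of the threshold, 33 no longer passed, 9 newly passed and 27 changed sign. With 2 libraries per group at 3 stages, a missed threshold does not show that a gene did not change, and the morula libraries were the shallowest.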

Other observations

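In GENCODE the start of *Brd8* lies 12 bases from that of *Kif20a*, which encodes a mitotic kinesin and runs on the opposite strand. The pair was chosen after its values were seen. In 2iES cells *Kif20a* fell by 0.97 log2 units (adjusted p = 0.00084, edgeR), where *Brd8* rose by 0.64, and in the E4.5 ICM both fell by 0.15. The other genes had no protein-coding start on the opposite strand within 1000 bases of their outermost GENCODE start. Starts inside the span, such as the RefSeq starts of *Ruvbl2*, *Trrap* and *Kat5*, were not searched in this way.

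*Epc1* made up 52.2%, 57.1% and 51.3% of the summed *Epc1* and *Epc2* TPM in late two-cell controls and 73.1% and 75.2% in E4.5 ICM controls. With dTAG13 its share was 66.7%, 64.6% and 57.0% and 70.0% and 68.3% at these stages, with no test. The groups overlapped in morulae (78.0% and 82.7% with DMSO, 83.5% and 71.9% with dTAG13). They also overlapped in 2iES cells (78.8% and 63.9% with DMSO, 67.6% and 70.5% with dTAG13).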
